A study of Mus musculus with 15 samples.

Results

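The MHC antigen presentation genes comprised 10 genes chosen by name, of 43629 genes counted in mouse intestinal organoids, and all 10 had a row in both the count and the FPKM table. They were the class II genes H2-Aa, H2-Ab1, H2-Eb1, Cd74 and Ciita, and the class I genes H2-K1, H2-D1, B2m, Tap1 and Nlrc5. Organoids are epithelial cultures grown from intestinal crypts, and the study compared cultures that had lost the tumour suppressor Apc with cultures carrying a fusion of Ptprk to Rspo3. WT comprised 5 libraries, of which replicates 1, 2, 5 and 6 were APC flox/flox cultures with an intact gene and replicate naive was a Dox naive culture, never given the drug that induces its Cas9. The 4 Apc libraries, also numbered 1, 2, 5 and 6, were Apc delta/delta cultures of those lines, and the 4 P-Rspo3 libraries, named 15d, 4d, M and F, carried the Ptprk-Rspo3 rearrangement. All lines were of C57B6/129 strain background. WT was kept in ENR medium, which holds EGF, Noggin and the Wnt agonist R-spondin, whereas Apc and P-Rspo3 were kept in EN medium without R-spondin, so in comparisons with WT the genotype and the medium cannot be told apart. The P-Rspo3 cultures were bulk populations rather than single clones, and they came from other lines than the flox WT cultures. Libraries held 28902729 to 35528495 counts on genes. P-values measure the spread between these cultures.

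MHC class I molecules are made of a heavy chain and the invariant light chain B2m, and they show peptides made by the proteasome inside the cell to cytotoxic T cells. MHC class II molecules are pairs of an alpha and a beta chain that are held by the invariant chain Cd74 until they meet peptides in endosomes, and they show these peptides to helper T cells. The related regulators Nlrc5, for class I, and Ciita, for class II, act on a shared promoter module whose X and Y elements are bound by RFX, CREB and NF-Y. Intestinal epithelial cells carry class I at all times, whereas their class II genes vary with interferon-gamma, microbes and cell state.

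On GRCm38, 6 of the members lie within the MHC locus, H2-K1 at chr17:33996017-34000347, Tap1 at chr17:34187553-34197225, H2-Ab1 at chr17:34257689-34269419, H2-Aa at chr17:34282744-34287823, H2-Eb1 at chr17:34305867-34316674 and H2-D1 at chr17:35262730-35267499. B2m lies at chr2:122147686-122153083, Nlrc5 at chr8:94434356-94527272 and Ciita at chr16:10480059-10528418. To show what the members share outside their expression, promoters were searched for TGACG, the core of the X2 element, and for the CCAAT box of the Y element, each on both strands. Promoters of 300 bases, from 250 before to 50 after the start, were held in the RefSeq table (GRCm38.p6) for 6 members, H2-Aa, H2-Eb1, H2-K1, H2-D1, B2m and Tap1. In H2-Aa, H2-K1, H2-D1 and B2m a TGACG stood upstream of an ATTGG, the reverse complement of CCAAT, with starts 26 bases apart in H2-Aa and 25 bases apart in the other three. That spacing was noticed after the matches were seen, and it was found in 54 of 32851 promoters (0.164%). TGACG upstream of ATTGG at any spacing was found in 2.83% of promoters, TGACG on either strand in 20.8% and CCAAT on either strand in 37.4%. H2-Eb1 held ATTGG without TGACG, and Tap1 held TGACG but no CCAAT box downstream of it. The TGACG of H2-Aa overlapped a match on the opposite strand. The stretches around the matches are shown 5′ to 3′ on the strand of the gene, aligned on ATTGG, with both motifs in capitals.
H2-Aa (chr17:34287857-34287911, minus strand): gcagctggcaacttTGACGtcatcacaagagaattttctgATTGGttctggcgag
H2-K1 (chr17:34000349-34000403, minus strand): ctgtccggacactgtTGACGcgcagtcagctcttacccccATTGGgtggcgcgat
H2-D1 (chr17:35262978-35263032, plus strand): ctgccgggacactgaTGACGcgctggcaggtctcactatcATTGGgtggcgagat
B2m (chr2:122147594-122147648, plus strand): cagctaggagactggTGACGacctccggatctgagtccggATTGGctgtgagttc
H2-Eb1 (chr17:34305768-34305822, plus strand): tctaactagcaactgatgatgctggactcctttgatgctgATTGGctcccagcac

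**Figure D1:**
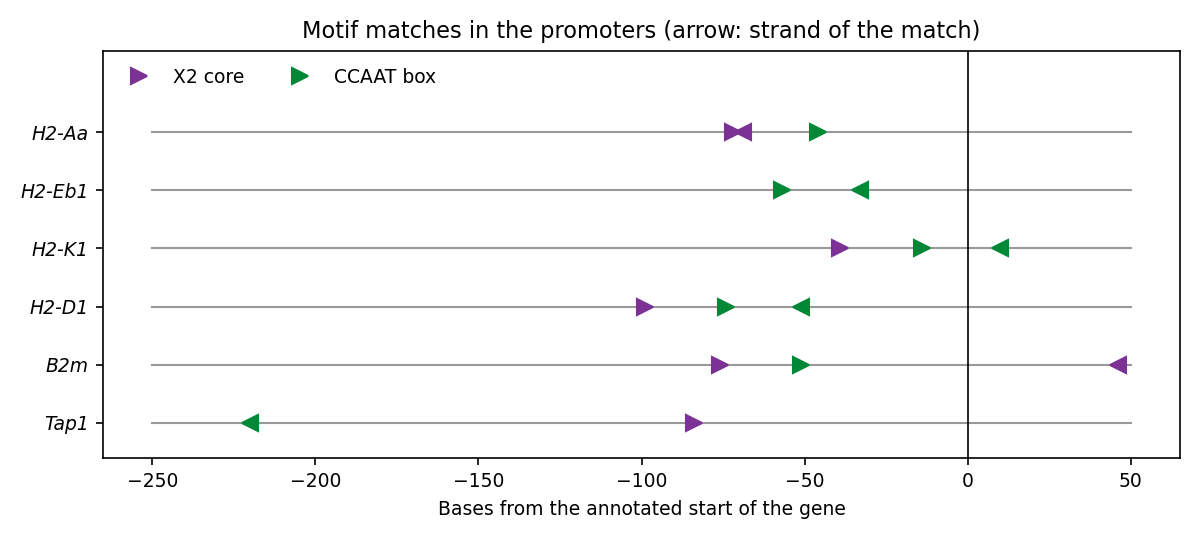
Matches of TGACG (X2 core) and of ATTGG (reverse complement of the CCAAT box) in the promoters of 6 members, by distance in bases from the annotated start. Arrows point right where these letters lie on the strand of the gene and left where they lie on the other strand. In H2-Aa, H2-K1, H2-D1 and B2m an X2 core lies 25 or 26 bases upstream of a CCAAT box.

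The members differed widely in level. By mean FPKM over the 13 libraries, which is scaled to gene length, the order was B2m (305), H2-K1 (184), H2-D1 (90.3), Tap1 (4.65), H2-Ab1 (0.678), Cd74 (0.442), H2-Eb1 (0.235), H2-Aa (0.0395), Nlrc5 (0.0239) and Ciita (0.0129). B2m ranked 252 among all genes, H2-K1 416 and H2-D1 910, whereas Tap1 ranked 9461 and the other 6 members ranked lower still. The order of the leading members was not the same in every group, since in Apc the FPKM of B2m (122 ± 18.4, SD, n = 4) lay below that of H2-K1 (172 ± 22.3, SD, n = 4) in all 4 libraries. Both transcriptional regulators were near the limit of detection in all groups. Ciita had 1, 4, 5, 11 and 11 counts in WT, 4 counts in each Apc library, and 0, 1, 1 and 2 counts in P-Rspo3. Nlrc5 had 0 to 4 counts in WT, 1 to 9 in Apc and 1 to 5 in P-Rspo3. A value of 3 counts or fewer was read as not detectable at these depths, a limit for counting error only, and neither gene reached the FPKM of 0.1 in 4 libraries that the test required.

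**Figure D2:**
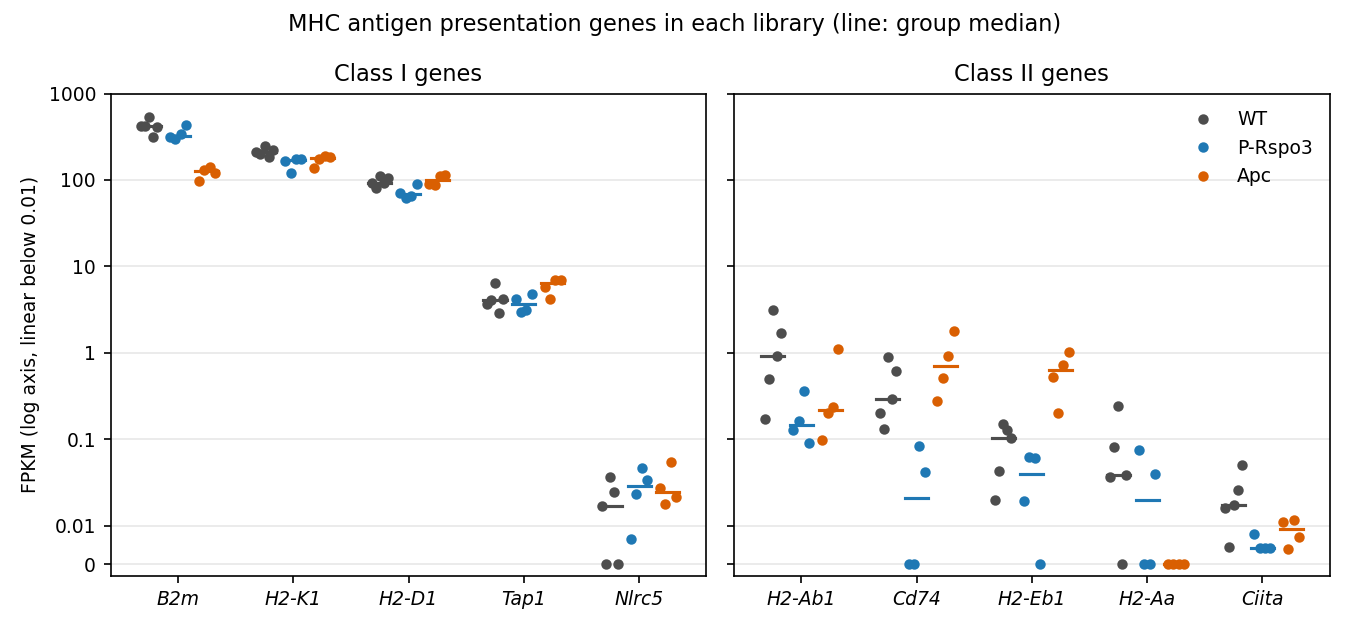
FPKM of the 10 members in each of the 13 libraries on a log axis that is linear below 0.01, with class I genes on the left and class II genes on the right, 1 point a library and a line at the group median. B2m in Apc lies below all WT and P-Rspo3 libraries, and no class II gene exceeds 3.17 FPKM in any library.

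In Apc organoids the light chain B2m fell about 4-fold against WT while the classical heavy chains H2-K1 and H2-D1 changed by far less. Among nonclassical class I genes, some fell by more than B2m, such as H2-Q2 (log2 fold change -5.05). Others did not, such as H2-Q4 (-0.35, edgeR adjusted p = 0.219). B2m had an FPKM of 418, 418, 541 and 310 in WT replicates 1, 2, 5 and 6 and 412 in the naive culture, against 97.7, 131, 141 and 121 in Apc replicates 1, 2, 5 and 6. All Apc libraries lay below all WT libraries. The log2 fold change was -2.08 (standard error 0.17). Its adjusted p was 2.2e-06 in edgeR's quasi-likelihood fit, with p-values corrected over 16749 genes by the Benjamini-Hochberg method, and leaving out any one library gave -1.96 to -2.19. B2m was 1 of 7 members tested and the member called lower, at an adjusted p under 0.05 and a change above 2-fold, and over all genes tested 14.1% were called lower and 12.2% higher.

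H2-K1, a classical class I heavy chain, had 208 (replicate 1), 199 (replicate 2), 250 (replicate 5), 184 (replicate 6) and 222 FPKM (naive) in WT and 139, 176, 189 and 183 in Apc. In FPKM Apc replicate 5 lay above WT replicate 6, whereas in TMM-normalized CPM, the counts scaled to library size, no library overlapped. H2-K1 had a log2 fold change of -0.60 (standard error 0.13, edgeR adjusted p = 0.0019), which passed the adjusted p but not the 2-fold threshold. H2-D1, the other classical heavy chain, had 91.7, 81.2, 111, 92.4 and 106 FPKM in WT replicates 1, 2, 5, 6 and naive, and 90.3, 87.9, 111 and 115 in Apc. These ranges overlapped. On counts H2-D1 fell by 0.34 on the log2 scale (standard error 0.12, edgeR adjusted p = 0.035), but limma on log2(FPKM + 1) gave 0.06 (adjusted p = 0.646). In that fit the median of all genes lay at 0.17 in Apc against WT, and relative to this median H2-D1 was at -0.10, H2-K1 at -0.48 and B2m at -1.93. Tap1, a subunit of the transporter that carries peptides into the endoplasmic reticulum, had 3.72, 4.05, 6.46, 2.91 and 4.22 FPKM in WT and 5.83, 4.25, 6.93 and 6.95 in Apc. The groups overlapped, with a log2 fold change of 0.28 (standard error 0.23, edgeR adjusted p = 0.311). In all, 3 of the 4 class I members tested fell and 0 rose at an adjusted p under 0.05, where 59.1% of all genes passed that threshold in either direction. H2-D1 missed it with all 3 groups in 1 fit (adjusted p = 0.0627) and without WT replicate 5 (0.0708) or naive (0.0716) or Apc replicate 1 (0.103) or 2 (0.0967).

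The ratio of B2m to the summed FPKM of H2-K1 and H2-D1 separated Apc from the other cultures. It was 1.39, 1.49, 1.5, 1.12 and 1.25 in WT replicates 1, 2, 5, 6 and naive and 1.33, 1.63, 1.41 and 1.60 in P-Rspo3 replicates 15d, 4d, M and F. In Apc it was 0.426, 0.495, 0.470 and 0.405. The mean ± SD was 1.35 ± 0.163 in WT (n = 5), 1.49 ± 0.148 in P-Rspo3 (n = 4) and 0.449 ± 0.0411 in Apc (n = 4), so that the Apc mean was 0.332 times that of WT and 0.300 times that of P-Rspo3. The ratio is a description of the same values and was given no test.

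**Figure D3:**
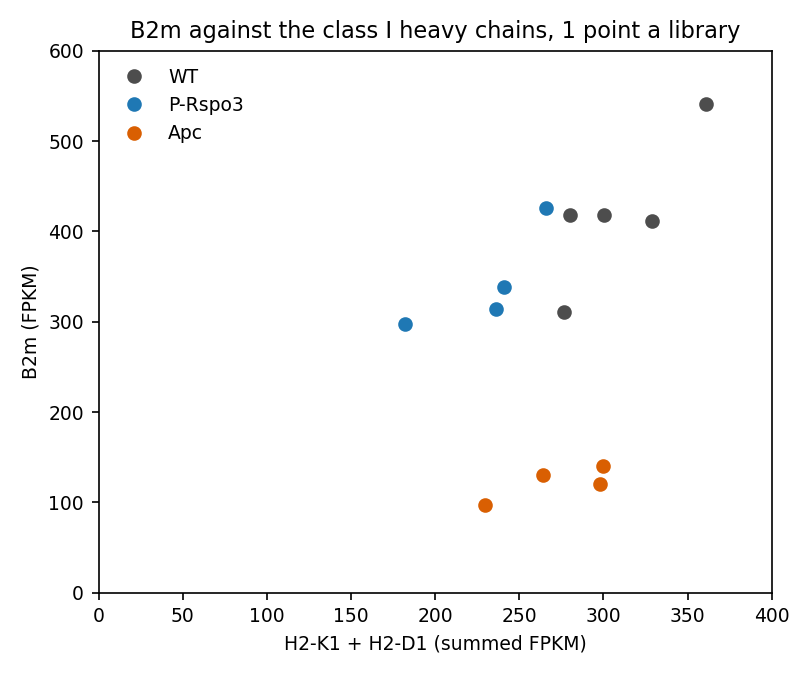
FPKM of B2m against the summed FPKM of H2-K1 and H2-D1, 1 point a library, both axes from 0. The 4 Apc libraries have 97.7 to 141 B2m at 230 to 300 FPKM of heavy chains, and each WT and P-Rspo3 library lies above them in B2m.

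Against P-Rspo3, which was kept in the same medium, Apc again had less B2m. P-Rspo3 replicates 15d, 4d, M and F had 315, 297, 339 and 426 FPKM of B2m, and every Apc library lay below them. The log2 fold change was -1.79 (standard error 0.15, edgeR adjusted p = 1.3e-05 over 16456 genes), where 13.3% of all genes were called lower and 13.4% higher. H2-K1 had 165, 120, 176 and 176 FPKM in these P-Rspo3 libraries and overlapped with Apc (log2 fold change -0.14, standard error 0.15, edgeR adjusted p = 0.451). H2-D1 had 71.2, 61.9, 64.7 and 89.5 FPKM in P-Rspo3, of which replicate F reached into the Apc range (log2 fold change 0.16, standard error 0.14, edgeR adjusted p = 0.371). Tap1 had 4.25, 2.96, 3.17 and 4.78 FPKM in P-Rspo3 and was higher in Apc by 0.49 on the log2 scale (standard error 0.16, edgeR adjusted p = 0.025), short of the 2-fold threshold and with groups that overlapped. At an adjusted p under 0.05 alone, B2m and Tap1 passed in this comparison, as did Cd74 and H2-Eb1, which entered it through Apc, where they are high. Of all genes 56.4% passed. The comparisons of Apc with WT and with P-Rspo3 share the Apc libraries.

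Between P-Rspo3 and WT no class I member was called. The log2 fold change was -0.44 for H2-K1 (standard error 0.15), -0.48 for H2-D1 (standard error 0.14), -0.28 for B2m (standard error 0.17) and -0.19 for Tap1 (standard error 0.24), and edgeR's adjusted p was 0.224, 0.192, 0.524 and 0.778. The groups overlapped for all 4 genes. The members with an unadjusted p under 0.05 were H2-Ab1, Cd74, H2-K1 and H2-D1. Of these, H2-Ab1 and Cd74 entered the test through WT, where they are high. The number of members is therefore not set against the 13.5% of all 15992 genes. Over all genes 0.00625% were called higher and 0% lower in this comparison (1 gene and 0 genes by edgeR). H2-Ab1 and Cd74 are described with the class II genes.

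In WT, replicate 5 had the highest FPKM of B2m, H2-K1, H2-D1 and Tap1, and replicate 6 the lowest of all but H2-D1. In P-Rspo3, replicate F was highest and replicate 4d lowest for these 4 genes. In Apc no library was highest or lowest for all 4, with replicates 5 and 6 each highest for 2 and replicates 1 and 2 each lowest for 2. The summed FPKM of 8 enterocyte markers was also highest in WT replicate 5 (9405) and lowest in replicate 6 (3219), with 5939, 5345 and 6206 in replicates 1, 2 and naive. In P-Rspo3 it was highest in replicate F (5224), but lowest in 15d (2238) rather than 4d (3235). In Apc it was 53.9, 41.1, 33.7 and 25.3 in replicates 1, 2, 5 and 6, highest in replicate 1 and lowest in replicate 6, and so not in the order of the 4 class I genes there. All 8 enterocyte markers were called lower in Apc against WT, beside 14.1% of all genes. Of these, Lct and Apoa4 did not reach an FPKM of 0.1 in all Apc libraries. They entered this test through WT, where they are high, so their calls are no support for the list. Whether the loss of enterocyte RNA has a part in the level of B2m was not tested, and in bulk RNA fewer cells of a type and less RNA per cell cannot be told apart. By Pearson correlation with the mean of B2m, H2-K1, H2-D1 and Tap1 over the 13 libraries, which share the 3 groups, the most alike of 12177 genes were Ormdl3 (r = 0.961), Stxbp2 (0.961), Gm15972 (0.958), Acy3 (0.952) and Optn (0.952). After group means were taken out, they were Irf7 (0.935), Ube2l6 (0.931), Npl (0.926), Stxbp2 (0.923) and Optn (0.922).

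The class II genes had 0 to 121 counts per library, and H2-Eb1 rose in Apc organoids while H2-Ab1 was at 3 or 4 counts there in 3 of 4 libraries. H2-Eb1, a class II beta chain, had 1, 5, 10, 8 and 5 counts in WT replicates 1, 2, 5, 6 and naive and 30, 10, 38 and 63 in Apc replicates 1, 2, 5 and 6. Apc replicate 2 equalled WT replicate 5 in counts, so the groups overlapped by this library. The log2 fold change was 2.14 (standard error 0.55, edgeR adjusted p = 0.0061), and H2-Eb1 was the member called higher of the 7 tested. It reached an FPKM of 0.1 in all 4 Apc libraries, in 3 of 5 WT libraries and in 0 of 4 P-Rspo3 libraries, so it entered the tests through Apc, the group where it is high, and its call among the members tested is no support for the list. P-Rspo3 had 1, 3, 4 and 0 counts of H2-Eb1 in replicates 15d, 4d, M and F, all below every Apc library. Apc exceeded P-Rspo3 by a log2 fold change of 3.66 (standard error 0.71, edgeR adjusted p = 0.0017), and between P-Rspo3 and WT the gene did not pass the filter. In FPKM the level in Apc remained low, at 0.618 ± 0.344 (SD, n = 4) against 0.0889 ± 0.0554 in WT (SD, n = 5).

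H2-Ab1, the beta chain of the other mouse class II molecule, had 8, 21, 121, 41 and 67 counts in WT replicates 1, 2, 5, 6 and naive, 3, 3, 4 and 46 in Apc replicates 1, 2, 5 and 6, and 6, 2, 17 and 4 in P-Rspo3 replicates 15d, 4d, M and F. Apc replicate 6 stood above the other Apc libraries and inside the WT range. H2-Ab1 did not reach an FPKM of 0.1 in Apc replicate 1 (0.0993) or in P-Rspo3 replicate F (0.0910). It entered both comparisons with WT through WT, where it is high, so a pass there is no support for the list. The log2 fold change of Apc against WT was -2.38 (standard error 0.95), which missed the threshold (edgeR adjusted p = 0.052), and without Apc replicate 6 it was -4.31 and passed (adjusted p = 0.0038), as it did with DESeq2 (adjusted p = 0.0136), whereas without WT replicate 5 it was -1.71 (adjusted p = 0.136). Against WT, P-Rspo3 had a log2 fold change of -2.88 (standard error 0.83, edgeR unadjusted p = 0.0058, adjusted p = 0.184), which ranged from -3.71 without P-Rspo3 replicate M to -2.23 without WT replicate 5. Between Apc and P-Rspo3 it was 0.52 (standard error 0.96, edgeR adjusted p = 0.682), and -1.41 without Apc replicate 6. H2-Aa, the alpha chain that pairs with H2-Ab1, had 1, 2, 8, 0 and 1 counts in WT, 3, 0, 0 and 1 in P-Rspo3 and 0 in all 4 Apc libraries, a level at which no fold can be given. Over the 13 libraries H2-Aa exceeded 3 counts in WT replicate 5 alone.

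Cd74, the invariant chain, was lowest in P-Rspo3. It had 10, 8, 40, 15 and 25 counts in WT replicates 1, 2, 5, 6 and naive, 14, 27, 44 and 94 in Apc, and 0, 0, 4 and 2 in P-Rspo3 replicates 15d, 4d, M and F. No P-Rspo3 library reached the lowest WT or Apc library, whereas WT and Apc overlapped. Against WT the log2 fold change in P-Rspo3 was -3.64 (standard error 0.83, edgeR unadjusted p = 0.0013), but it did not pass adjustment over 15992 genes (adjusted p = 0.124). Leaving out P-Rspo3 replicate M gave -4.67, and leaving out each of the others gave -3.84 to -3.16. Every P-Rspo3 library lay under the FPKM of 0.1, so Cd74 entered this test through WT and that against Apc through Apc, and its separation from P-Rspo3 is given as a description. DESeq2 called both Cd74 (-3.76, adjusted p = 0.0046) and H2-Ab1 (-2.93, adjusted p = 0.0107) lower in P-Rspo3. Both entered this test through WT, where they are high, so these calls are no support for the list. Cd74 was the member of 6 tested whose groups did not overlap in this comparison. Since it entered through WT, this is not set against the 4.89% of all genes that did not overlap. Between Apc and P-Rspo3 the log2 fold change was 4.40 (standard error 0.87, edgeR adjusted p = 0.0019) and 5.43 without P-Rspo3 replicate M. In this comparison 3 of 7 members (Cd74, H2-Eb1 and B2m) did not overlap between groups. Cd74 and H2-Eb1 entered it through Apc, where they are high, so this number is not set against the 53.8% of all genes. Between Apc and WT the log2 fold change of Cd74 was 0.72 (standard error 0.59, edgeR adjusted p = 0.319), with 0.14 without Apc replicate 6 and 1.22 without WT replicate 5. There 2 of 7 members, B2m and H2-K1, did not overlap, and 51.8% of all genes did not overlap.

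**Figure D4:**
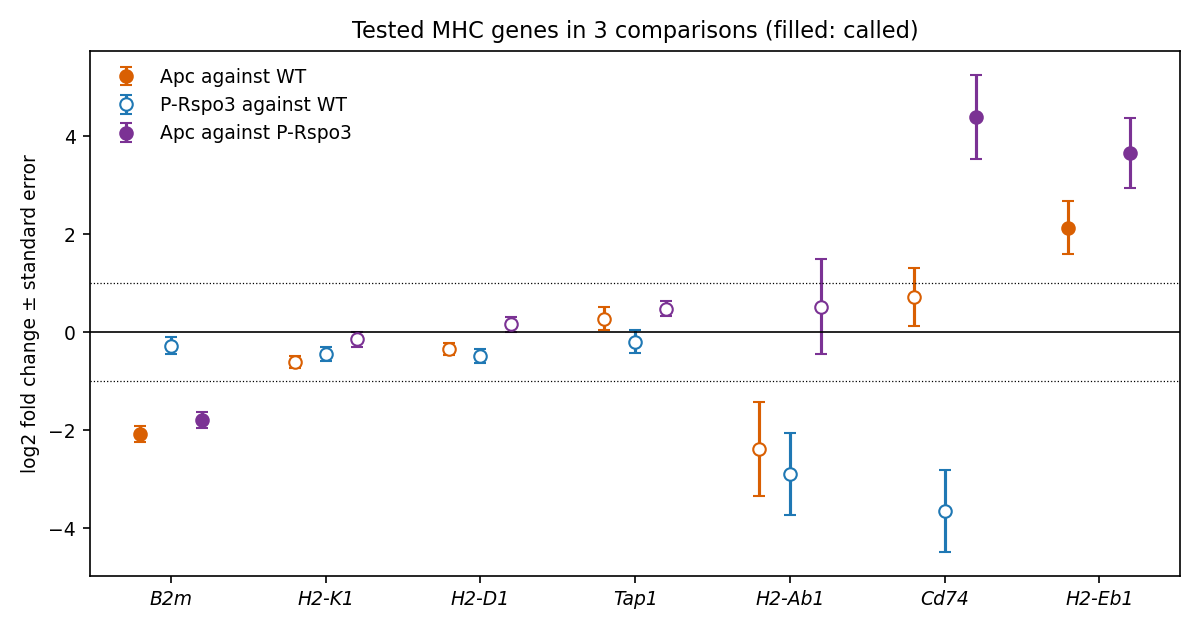
log2 fold change of each tested member in the 3 comparisons from edgeR, with bars for 1 standard error, filled where called, and dotted lines at a 2-fold change. B2m is called lower in both comparisons of Apc, H2-Eb1 is called higher in both, and Cd74 is called higher against P-Rspo3 alone.

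The summed FPKM of H2-Aa, H2-Ab1, H2-Eb1 and Cd74 was 0.429, 0.752, 4.45, 1.33 and 2.44 in WT replicates 1, 2, 5, 6 and naive, 0.902, 0.908, 1.88 and 3.91 in Apc replicates 1, 2, 5 and 6, and 0.223, 0.225, 0.504 and 0.173 in P-Rspo3 replicates 15d, 4d, M and F. WT replicate 5 and Apc replicate 6 were the highest of their groups, and The WT range held all 4 Apc libraries, whereas 3 of 4 P-Rspo3 libraries lay below it. Antigen-presenting cells carry class II at far higher levels, so their markers were read beside these values. Of 13 immune markers, 5 (Cd79a, Cd3e, Adgre1, Flt3 and Tyrobp) were at 3 counts or fewer in all 13 libraries, and Tyrobp was at 0 throughout. Ptprc had 0 to 24 counts in WT, 3 to 15 in P-Rspo3 and 0 to 2 in Apc. Ms4a1 had 3 to 10 counts in WT, 1 to 5 in P-Rspo3 and 1 to 5 in Apc, and Itgax had at most 4. The summed FPKM of the 13 markers was 3.68 ± 0.671 in WT (SD, n = 5), 3.53 ± 1.10 (SD, n = 4) in P-Rspo3 and 7.16 ± 2.76 in Apc (SD, n = 4). The most abundant in Apc was Cd68, a lysosomal protein, with 3.65, 5.04, 6.16 and 10.1 FPKM in replicates 1, 2, 5 and 6 against 0.780 ± 0.330 in WT (SD, n = 5). Of the 5 immune markers tested between Apc and WT, Cd68 was called higher and Itgam, Csf1r and Lyz2 lower. Csf1r and Lyz2 did not reach an FPKM of 0.1 in all Apc libraries and entered this test through WT, where they are high. Of 10 markers of stroma and endothelium, Col1a2, Col3a1 and Dcn were at 3 counts or fewer throughout, and the summed FPKM was 3.51 ± 1.08 in WT (SD, n = 5), 2.77 ± 0.743 in P-Rspo3 (SD, n = 4) and 105 ± 106 in Apc (SD, n = 4). Of the 5 tested between Apc and WT, Vim, Pdgfra and Cdh5 were called higher and Pdgfrb and Pecam1 lower. Pdgfra and Cdh5 entered this test through Apc, and Pdgfrb and Pecam1 through WT, the groups where they are high. Vim, an intermediate filament protein, made up most of the summed FPKM, with 16.6, 43.9, 101 and 253 FPKM in Apc replicates 1, 2, 5 and 6. Cdh5 had 217 to 372 counts in Apc and 0 in WT and P-Rspo3. Cd74, Cd68 and Vim thus took the same order over the 4 Apc libraries, whereas H2-Eb1 was lowest in replicate 2 (10 counts against 30, 38 and 63 in replicates 1, 5 and 6), and the part of such cells or of such a cell state in the class II values was not tested. The summed FPKM of 7 epithelial markers was 2112 ± 178 in WT (SD, n = 5), 2215 ± 197 in P-Rspo3 (SD, n = 4) and 2211 ± 214 in Apc (SD, n = 4). Single markers moved both ways in Apc against WT, where Krt18 was called higher (517 against 199 FPKM) and Vil1 lower (91.9 against 180 FPKM), Krt19 fell by less than 2-fold (470 against 676 FPKM), and 6 of the 7 passed the adjusted p. Of 5 stem cell markers, 4 were called higher in Apc against WT, and Olfm4 was called lower. All these marker counts stand beside 12.2% of all genes called higher, 14.1% called lower and 59.1% that passed the adjusted p in either direction. The calls of markers that entered a test through the group where they are high are no support for their lists.

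Beyond the members, the machinery of the class II pathway was split in Apc. Of 12 genes of class II peptide loading and processing, 8 were tested against WT, of which 1 was called higher and 4 lower, beside 12.2% and 14.1% of all genes, with a median log2 fold change of -0.77 beside 0.00 for all genes. The protease Ctss, which trims the invariant chain, fell from 18.2 ± 2.46 FPKM (SD, n = 5) to 1.21 ± 0.206 (SD, n = 4), a log2 fold change of -4.21 (standard error 0.18, edgeR adjusted p = 2.5e-08). Ctsl, a protease that does this in thymic epithelium, rose from 16.0 ± 3.67 to 110 ± 14.8 FPKM (log2 fold change 2.49, standard error 0.17, edgeR adjusted p = 5.8e-07). H2-DMa, a chain of the peptide exchange factor, fell by 2.11 on the log2 scale, and Ifi30, a lysosomal thiol reductase, fell by 1.69. H2-DMb2, H2-Oa, H2-Ob and H2-Eb2 had 0 counts in every library, and H2-DMb1 had at most 9. Against P-Rspo3 the called genes with the largest changes were Ctss (-4.08), Ctsl (3.21), Ifi30 (-1.51) and H2-DMa (-1.39), with 1 of 7 genes called higher and 4 lower, beside 13.4% and 13.3% of all genes. Between P-Rspo3 and WT 0 of the 7 genes tested were called by edgeR, and 2 had an unadjusted p under 0.05, beside 13.5% of all genes.

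All 5 immunoproteasome and activator genes fell at an adjusted p under 0.05 in Apc against WT and 4 were called lower, with a median log2 fold change of -1.09. Over all genes 59.1% passed that adjusted p in either direction and 14.1% were called lower. The log2 fold change was -2.21 for Psmb8 and -1.88 for Psmb9, inducible catalytic subunits, with edgeR adjusted p-values of 0.0061 and 0.0038, and Psmb8 had -2.96 without Apc replicate 5. It was -1.09 for Psme2, part of the PA28 activator, and -1.08 for Psmb10, the remaining inducible subunit, with edgeR adjusted p-values of 1.4e-05 and 1.8e-05. The absolute level of Psme2 stayed high, at 236 ± 20.3 FPKM in Apc (SD, n = 4) against 405 ± 62.1 in WT (SD, n = 5), while Psmb8 had 0.669 ± 0.437 against 2.46 ± 1.16. Against P-Rspo3, Psmb9 was called lower (-1.24, edgeR adjusted p = 0.016) and 4 of the 5 passed the adjusted p, beside 13.3% and 56.4% of all genes. Psmb8 had 0.386 ± 0.219 FPKM in P-Rspo3 (SD, n = 4) and all 4 libraries lay below WT in CPM, with a log2 fold change of -2.47 that did not pass adjustment (edgeR adjusted p = 0.131). Of 7 class I peptide loading genes, 2 were called lower in Apc against WT and 0 higher, beside 14.1% and 12.2% of all genes, and 4 passed the adjusted p, a share close to that of all genes (59.1%). Their median log2 fold change was -0.43. The 2 called were Tapbpl, a peptide editor, at -1.29 (standard error 0.11, edgeR adjusted p = 2.8e-06) and Tap2, the partner of Tap1, at -1.10 (standard error 0.26, edgeR adjusted p = 0.0035). Against P-Rspo3 the same 2 genes were called lower, Tap2 at -1.18 and Tapbpl at -1.06, which was -0.92 and short of 2-fold without P-Rspo3 replicate F. Tap1 and Psmb9 stand head to head, their annotated exons overlap on opposite strands, and whether the counting used strand is not given in the sources used here.

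Nonclassical class I genes fell in Apc by more than B2m in several cases. Of 16 genes, 15 were tested in Apc against WT, of which 9 were called lower and 1 higher, beside 14.1% and 12.2% of all genes, with a median log2 fold change of -1.36. Of those called lower, H2-T3, H2-Q1, H2-T10 and H2-Bl did not reach an FPKM of 0.1 in all Apc libraries. They entered this test through WT, where they are high, so their calls are no support for the list. H2-T3, which encodes the thymic leukaemia antigen of gut epithelium, had 20.1, 13.8, 22.6, 12.2 and 19.3 FPKM in WT and 0.211, 0.0418, 0.129 and 0.0469 in Apc, without overlap. Its log2 fold change was -7.65 (standard error 0.39, edgeR adjusted p = 8.1e-08). H2-Q1 fell from 14.1 ± 5.49 FPKM (SD, n = 5) to 0.264 ± 0.150 (SD, n = 4), a log2 fold change of -5.95 (standard error 0.50, edgeR adjusted p = 2.7e-06). Fcgrt, the neonatal Fc receptor that pairs with B2m, fell by 5.12 on the log2 scale (standard error 0.47, edgeR adjusted p = 4.8e-06), and by 5.83 without Apc replicate 6. Cd1d1, which presents lipids to natural killer T cells, was the gene that rose, from 0.255 ± 0.101 FPKM (SD, n = 5) to 5.76 ± 2.13 (SD, n = 4), a log2 fold change of 4.08 (standard error 0.37, edgeR adjusted p = 4.3e-06). Mr1 did not pass the filter and had at most 14 counts. Against P-Rspo3, 6 were called lower and 1 higher, led by H2-Bl (-7.89), H2-T3 (-6.87), H2-Q1 (-5.19) and Cd1d1 (5.03), beside 13.3% and 13.4% of all genes. In that test H2-Bl, H2-T3, H2-Q1 and H2-T10 entered through P-Rspo3 and Cd1d1 through Apc, the groups where they are high.

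H2-Bl also differed within WT. It had 3.37, 3.28, 7.21 and 2.19 FPKM in WT replicates 1, 2, 5 and 6 and 37.8 in the naive culture, 19.2, 28.9, 23.8 and 47.4 in P-Rspo3 replicates 15d, 4d, M and F, and 0.0736 to 0.216 in Apc. The naive culture thus lay in the range of P-Rspo3 and apart from the flox cultures. Its log2 fold change in Apc against WT was -6.47 (standard error 1.03, edgeR adjusted p = 2.7e-04), and -5.20 without the naive culture (adjusted p = 7.1e-06). In P-Rspo3 against WT, H2-Bl had 1.44 (adjusted p = 0.419), and 2.71 without the naive culture, where it passed (adjusted p = 0.0060). H2-Q10 had 51.0 to 86.9 FPKM in WT, 4.82 to 15.2 in Apc and 15.3, 1.09, 25.9 and 22 in P-Rspo3 replicates 15d, 4d, M and F, with replicate 4d far below the rest. In P-Rspo3 against WT, 7 of the 15 genes had an unadjusted p under 0.05, beside 13.5% of all genes, and 0 were called by edgeR, with a median log2 fold change of -0.62. H2-Q6, among the 7, entered this test through WT, where it is high. Without the naive culture H2-Q6 was called too (-3.28, adjusted p = 0.025), where over all genes 166 were called higher and 100 lower.

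**Figure D5:**
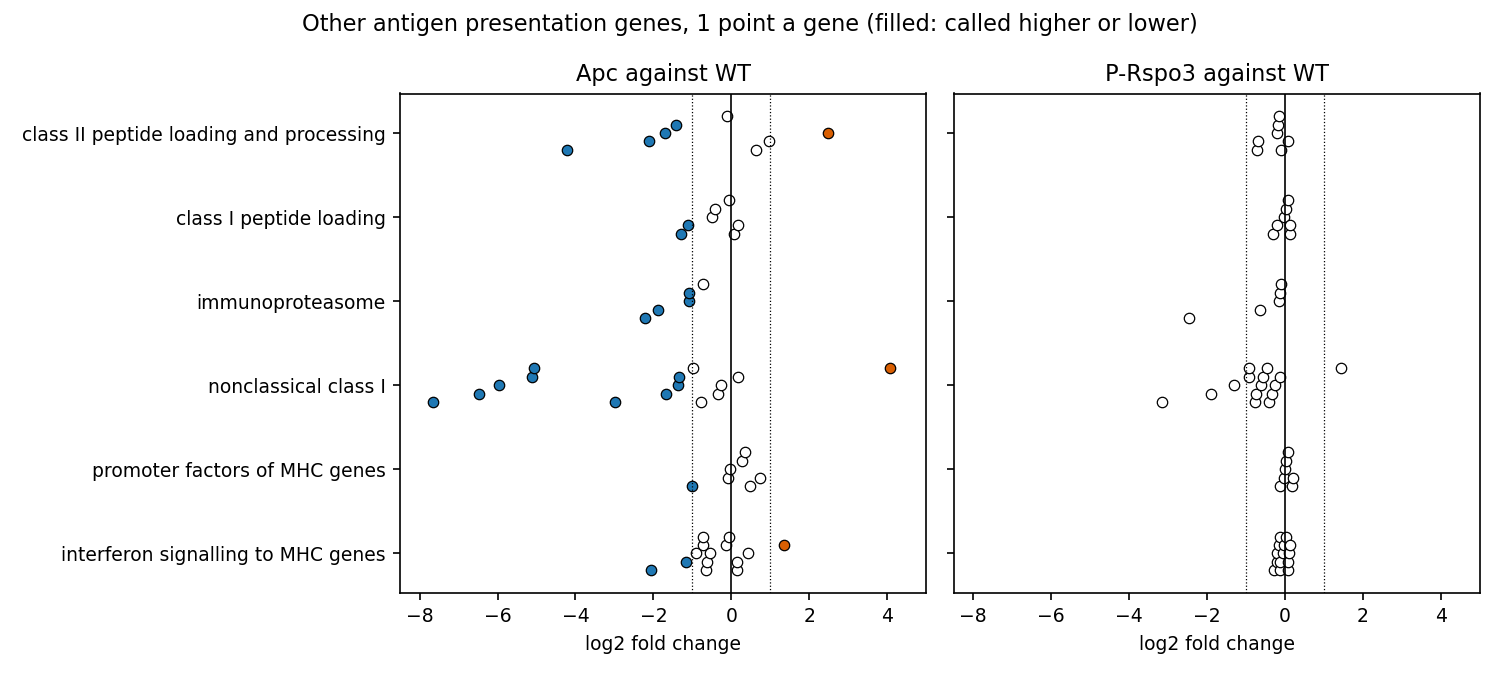
log2 fold change of genes in 6 lists around the members, 1 point a gene, for Apc against WT on the left and P-Rspo3 against WT on the right, filled blue where called lower and orange where called higher, with dotted lines at a 2-fold change. In Apc 9 nonclassical class I genes and 4 immunoproteasome genes are called lower, and in P-Rspo3 no gene is called.

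Of 7 promoter factors, Rfxank, a subunit of RFX, was called lower in Apc against WT (-1.01, standard error 0.13, edgeR adjusted p = 7.2e-05) and against P-Rspo3 (-1.21, standard error 0.10, edgeR adjusted p = 1.0e-05), and 0 were called higher. Against WT it lay short of the 2-fold threshold without WT replicate 1 (-0.98), 5 (-0.96) or naive (-0.98). That 1 call of 7 stands beside 14.1% of all genes called lower against WT and 13.3% against P-Rspo3. Rfx5, the DNA-binding subunit, rose by less than 2-fold (log2 fold change 0.73, edgeR adjusted p = 8.3e-04 against WT). Of 14 interferon signalling genes, 2 were called lower and 1 higher in Apc against WT, near the shares of all genes (14.1% and 12.2%), with a median log2 fold change of -0.59. Ifngr1, a chain of the interferon-gamma receptor, fell from 116 ± 18.4 FPKM (SD, n = 5) to 32.5 ± 3.40 (SD, n = 4), a log2 fold change of -2.07 (standard error 0.12, edgeR adjusted p = 2.0e-07). Irf2 fell by 1.16, and Socs1, an inhibitor of interferon signalling, rose by 1.34 on the log2 scale, from 0.244 ± 0.117 to 0.778 ± 0.230 FPKM. Against P-Rspo3 the same 3 were called, Ifngr1 at -2.01, Socs1 at 1.56 and Irf2 at -1.17. Between P-Rspo3 and WT 0 of these 21 genes were called, and 0 had an unadjusted p under 0.05 by edgeR, beside 0.00625% of all genes called higher, 0% called lower and 13.5% with an unadjusted p under 0.05.

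The H2 genes are a family with similar sequences that vary between mouse strains, so reads of one may be lost or counted for another. Of all windows of 50 bases in the GENCODE transcripts of a member, 9.63% of H2-K1 and 12.8% of H2-D1 also occurred in another gene, against 0% for B2m, H2-Ab1, H2-Eb1 and Cd74. The share was 53.5% for H2-T22, 36.4% for H2-Q4, 19.1% for H2-Q10 and 0.926% for H2-T3. HTSeq leaves out reads that map to several genes and cufflinks divides them, so FPKM per CPM was compared between groups over 10321 genes with at least 50 counts in every library. In Apc against WT it shifted by 0.01 on the log2 scale for H2-K1 and B2m, by 0.12 for H2-D1 and by -0.11 for Tap1, and 91.3% of genes shifted less than H2-D1. The shift was 0.29 for Tap2, more than in 98.6% of genes, and its FPKM was 2.19 ± 0.604 in Apc (SD, n = 4) and 3.20 ± 0.938 in WT (SD, n = 5), less than 2-fold apart. Strain alleles of these genes were not analysed here, and the part of the strain background in their levels was not tested.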

How the data were processed

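RNA of 15 organoid cultures was sequenced, and 13 libraries were grouped by their labels. The title and genotype conflict for the others. Reads had been aligned to GRCm38 with STAR by the authors, who deposited whole-number HTSeq 0.6.0 counts per gene, not normalized, and Cufflinks 2.2.1 FPKM, scaled to gene length and depth. The strand setting is not given in the sources used here. Each pair of groups was fitted alone by edgeR 4.0.16 under R 4.3.3 (TMM, glmQLFit, glmQLFTest). The filter was an FPKM of 0.1 or more in at least 4 libraries, the size of the smaller group. Calls needed both an adjusted p (Benjamini-Hochberg) under 0.05 and a log2 fold change beyond 1 in either direction. Figures were drawn with matplotlib 3.10.9.

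Members and lists were chosen with earlier results of these data known. All members are given, and of each list up to 4 called genes with the largest change and those that did not pass the filter. Other genes were named after their values were seen. A further immune marker is not reported here. On counts drawn with 4-fold changes in 200 genes, the test recovered 199 (15 false calls) for Apc against WT, 199 (9 false) for P-Rspo3 against WT and 200 (10 false) for Apc against P-Rspo3. The changed genes were picked from well-counted genes only, and all genes were drawn with the same spread. The recovery therefore says nothing of the class II members, which have few counts. Alternatives were DESeq2 1.42.0, limma 3.58.1 on FPKM, other filters, other groupings, each library left out and the line as a replicate block. Apc and WT libraries of the same number come from the same line by their labels. After subtraction of group means, same-line libraries correlated with a median r of 0.119 (-0.0104 to 0.24 over 4 pairs), and the 12 other pairs with -0.03.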

Additional observations from a re-analysis of the deposited data

Results flagged for a closer look

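In Apc, H2-Ab1 had an FPKM of 1.10 in replicate 6, far above the 0.0993 to 0.238 of the other 3 libraries. In P-Rspo3, Ciita had an FPKM of 0.00788 in replicate 15d against 0.00414 to 0.00426 in the others, where every library had at most 2 counts. These were the far samples in 29 groups of a member and a genotype, of which chance is set to pick about 1 in 20.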

How the results depend on the processing

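Of 345 member log2 fold changes under alternatives, 329 kept their direction and their side of the thresholds. The calls of B2m as lower and of no class I member in P-Rspo3 against WT held in all alternatives that tested them. In Apc against WT the members called lower were 2 with the DESeq2 test, 3 with no filter on FPKM, 2 with all 3 groups in 1 fit and 1 to 2 with each library left out, H2-Ab1 being called without WT replicate 1 or Apc replicate 6. Where the filter was applied, H2-Ab1 entered these fits through WT, where it is high. The members called higher were 0 with an FPKM of at least 1 and 0 with limma on log2(FPKM + 1). All genes called were 1184 higher with an FPKM of at least 1 and 1132 lower with limma on log2(FPKM + 1). The replicate block gave 1979 genes higher and 2240 lower, with 1 member each way, and changed no member's call. Limma on log2(FPKM + 1) and log2(FPKM + 0.1) changed the sign of H2-D1 in Apc against WT, to 0.0643 and 0.0649, and of H2-K1 in Apc against P-Rspo3, to 0.11 and 0.12. The median of all genes in these fits lay at 0.17 and 0.28 against WT and at 0.16 and 0.25 against P-Rspo3, and relative to it both kept their sign (H2-D1 -0.10 and -0.21, H2-K1 -0.05 and -0.14). H2-Ab1 in Apc against P-Rspo3 was reversed to -0.11 with the conflicting libraries placed by genotype, and ranged from -1.41 (without Apc replicate 6) to 1.35 with each library left out. In Apc against P-Rspo3 the members called higher were 0 with an FPKM of at least 1 and 0 with limma on log2(FPKM + 1), and all genes called were 1264 higher with an FPKM of at least 1, and 1430 higher and 1124 lower with limma on log2(FPKM + 1). In P-Rspo3 against WT, 2 members, H2-Ab1 and Cd74, were called lower by the DESeq2 test. Both entered it through WT, where they are high. All genes called there were 55 higher and 173 lower by the DESeq2 test, 2 and 11 with no filter, 3 and 4 with limma on log2(FPKM + 1), 2 and 1 with limma on log2(FPKM + 0.1), 14 and 61 with all 3 groups in 1 fit, 166 and 100 with WT of the flox lines only, and 1 to 166 higher and 0 to 100 lower with each library left out. The upper ends came without the naive library, and no member was called there. Class II genes rest on few counts.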

Other observations

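Both libraries whose title and genotype conflict had members within or below the WT range. The library titled LIPO, with a WT genotype and ENR medium, had 410 FPKM of B2m, 202 of H2-K1 and 86.1 of H2-D1, with 10 counts of H2-Ab1, 9 of H2-Eb1 and 3 of Cd74. The library titled NAIVE_F, with a P-Rspo3 genotype and EN medium, had 354 FPKM of B2m, 220 of H2-K1 and 92.7 of H2-D1, with 25 counts of H2-Ab1, 6 of H2-Eb1 and 5 of Cd74. Their ratios of B2m to the heavy chains were 1.42 and 1.13. H2-Bl had 7.23 FPKM in LIPO and 3.57 in NAIVE_F.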
